A study of Rattus norvegicus with 6 samples.

Results

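The nucleolar ribosome assembly factors described here are 36 rat genes whose products help to build ribosomes in the nucleolus. They were named as a list, and each gene is represented by the probe set of highest mean signal over 6 arrays among the probe sets that the platform annotation ties to that gene alone. All 36 genes were measured, out of 22093 genes in all. The probe sets were selected on their mean signal over both groups, and the genes were chosen by name with earlier results of these arrays known, so levels and differences of the members are given as a description. Only 3 members, Npm1, Nhp2 and Heatr1, had more than 1 probe set.

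Ribosomes are assembled around a long precursor RNA that RNA polymerase I transcribes in the nucleolus. Box C/D and box H/ACA particles modify that precursor, a large early particle called the small subunit processome folds and cuts the part that becomes the 40S subunit, and other factors shape the precursor of the 60S subunit before both leave the nucleus. Cells that grow or divide make more of these factors, and many of their genes are known targets of the transcription factor Myc.

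The study set 3 injured tendons of Sprague-Dawley rats, taken 1 week after injury, against 3 tendons taken at the same time after a control operation, with 1 array for each biological replicate. No allele, drug or cell sort is named for either group, and the sources used here do not state the age or sex of the rats, the tendon or the kind of injury. Sample titles refer to a rat array although the protocol speaks of a mouse array, and the probe sets carry rat gene names. Values are log2 signals as the authors deposited them, so a difference of 1 is a doubling, and errors of differences are standard errors (SE).

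The injured arrays did not form 1 cluster. Across genes, Pearson's r of injured replicate 1 was 0.951 to 0.966 with the control arrays but 0.728 and 0.790 with injured replicates 2 and 3, whose own r was 0.965. These values describe the arrays, since genes are not independent replicates. The median signal of probe sets with no gene name, a guide to background, was 5.49 to 5.79 on the control arrays, 5.59 on the first injured array, and 6.61 and 6.50 on the remaining pair. Each result below is therefore given array by array. In control tendon the tendon matrix genes Tnmd, Comp and Kera read 11.07 to 19.17, while the tenocyte transcription factors Scx and Mkx read 5.67 to 6.74, close to the unnamed probe sets. Skeletal muscle genes were strong on the control arrays as well, with Acta1 at 19.93 on all 3, the highest value of those arrays. In whole tissue, fewer cells of a type and less RNA per cell cannot be told apart.

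On injured replicate 1 every assembly factor read above all 3 control arrays. This held for 36 of 36 members, against 21.0% of all genes. The members exceeded the control mean by a median log2 of 0.98 on that array, with a range from 0.20 for Rrp1b to 3.25 for Wdr43, while the median over all genes was -0.02. A doubling or more was seen for 16 of the 36, against 3.32% of all genes. On injured replicates 2 and 3 the members went the other way, with medians of -0.25 and -0.19 against the control mean. There 22 and 21 of the 36 read below every control array, against 32.6% and 33.3% of all genes. That share varied with signal strength. It was 68.8% and 69.8% for all genes with a control mean of 7 to 9, and 90.7% and 90.1% at 9 or more. On each of these arrays 8 members read above every control array, against 55.4% and 53.2% of all genes. For 18 members, injured replicate 1 lay above and both other injured arrays lay below the whole control range, a pattern found in 9.47% of all genes.

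**Figure D1:**
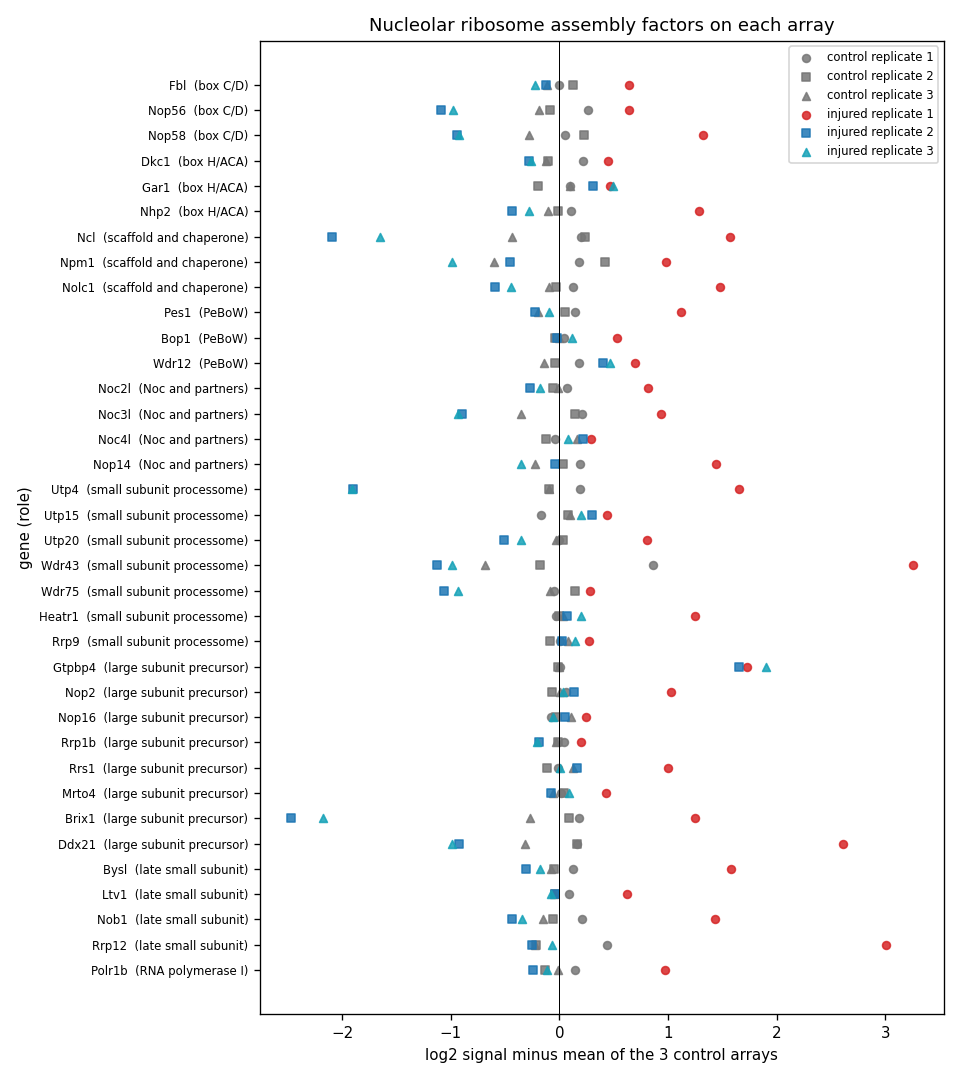
Log2 signal of each of the 36 assembly factors (rows, with role) minus the mean of the 3 control arrays, 1 point per array. All red points (injured replicate 1) lie to the right of the grey control points, the blue points (injured replicates 2 and 3) mostly lie to their left, and Gtpbp4 is the row where all 3 injured arrays stand together at 1.65 to 1.90.

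The split between injured arrays set what the group comparison could show. Over all 36 members the median injured minus control difference was 0.18, beside 0.15 over all genes, with 25 differences above 0 and 11 below. The split was 12 above and 24 below after quantile normalization, and 2 above and 34 below after centring, where the medians of all genes were -0.28 and -0.38. In limma's fit over all genes, 0 members passed an adjusted p of 0.05 (Benjamini-Hochberg), and 0.0% of all genes did. At an unadjusted p under 0.05, 3 members were higher (Gtpbp4, Wdr12 and Gar1) and 0 lower, against 4.39% and 7.25% of all genes. The injured arrays did not overlap with the control arrays for 5 members, all higher, against 7.09% of all genes, and for 0 members that were lower, against 8.0%. The median SD of a member was 0.14 over the control arrays and 0.69 over the injured arrays, and over all genes these were 0.18 and 0.45. Without injured replicate 1 the same fit called 12 members, 2 higher (Gtpbp4 and Wdr12) and 10 lower, against 39.1% and 21.6% of all genes. The lower ones were Brix1, Utp4, Ncl, Nop56, Wdr75, Ddx21, Nop58, Noc3l, Nolc1 and Utp20, with differences from -0.43 for Utp20 to -2.33 for Brix1. Their control means were all 7.78 or more. On injured replicates 2 and 3, all genes with a control mean of 7 to 9 had median differences of -0.49 and -0.48. At 9 or more these medians were -2.06 and -1.82. With injured replicate 1 as the only injured array, 0 members passed, against 0.0407% of all genes that were higher, and 26 members were higher at an unadjusted p under 0.05, against 4.56% of all genes. That fit takes its spread from the control arrays and assumes that the lone injured array would vary like them.

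The ranks of the members within each array gave the same picture as their signals on injured replicate 1. All 36 members stood at a higher percentile among all genes there than on any control array, against 25.6% of all genes. The median percentile of the members was 74.5, 73.4 and 74.8 on the control arrays and 84.2 on injured replicate 1. It was 79.3 and 77 on injured replicates 2 and 3, where 18 and 16 members ranked below their lowest control percentile, against 50.6% and 50.9% of all genes. The count of 36 above the control range on injured replicate 1 was also 36 after quantile normalization and after centring of each array on its median. Both were tried after the data were seen. They moved that array little, since its median over all genes was -0.02 as deposited, 0.006 after quantile normalization and 0.017 after centring.

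The differences on injured replicates 2 and 3 varied with signal strength, among members and among all genes. Of 10 members with a control mean of 9 or more, 8 and 9 lay below the control range, with median differences of -1.02 and -0.99. The 3152 genes of that signal range had medians of -2.06 and -1.82, further below control than the members. Of those genes, 90.7% and 90.1% lay below the control range. For the 18 members with a control mean of 7 to 9 the medians were -0.15 and -0.09, and for the 4952 genes of that range -0.49 and -0.48. Of these 18, 10 and 9 lay below the control range, against 68.8% and 69.8% of the 4952 genes. Below 7, the 8 members had medians of -0.10 and -0.05, while 13989 genes had 0.59 and 0.49. Of the 8, 4 and 3 lay below the control range, against 6.7% and 7.6% of those genes. On those 2 arrays 7 and 6 of the 8 lay under the median unnamed probe set, so their values there are close to background. They were Dkc1, Bop1, Noc4l, Rrp1b, Rrs1 and Bysl on both arrays, and Polr1b on injured replicate 2. On injured replicate 1 the 3 signal ranges had member medians of 1.45, 0.88 and 0.49 from the strongest to the weakest, and medians over all genes of 0.01, 0.02 and -0.03.

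**Figure D2:**
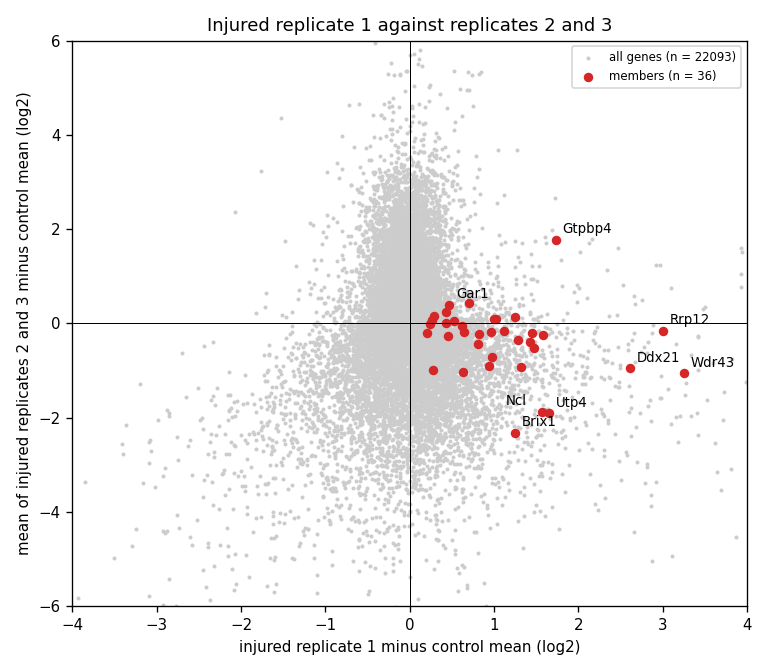
Each point is a gene, with its difference from the control mean on injured replicate 1 (horizontal axis, log2) and the mean difference of injured replicates 2 and 3 (vertical axis, log2). Members (red) lie to the right of 0 and mostly below 0, Gtpbp4 lies at about 1.7 on both axes, and 107 genes fall outside the axes.

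Gtpbp4 stood apart from the other members. It encodes a GTP-binding protein of the nucleolus, the counterpart of yeast Nog1, which acts on precursors of the 60S subunit. Its probe set (TC1700000819.rn.1) read 10.80, 10.78 and 10.79 on the control arrays, in the order of their replicate numbers, and 12.52, 12.44 and 12.69 on the injured arrays. The same order is used for every member below. The groups were far apart and neither spread by more than 0.13 (SD). The difference was 1.76 (SE 0.14), which is 3.39-fold. Its adjusted p in limma was 0.194, the smallest among the members, and it ranked 2 of 22093 genes by unadjusted p. Its percentile among all genes was 93.7, 94.1 and 95.2 on the control arrays and 97.4, 98.9 and 99 on the injured arrays. After quantile normalization the difference was 1.45, after centring it was 1.23, and leaving out any single array gave 1.69 to 1.82.

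**Figure D3:**
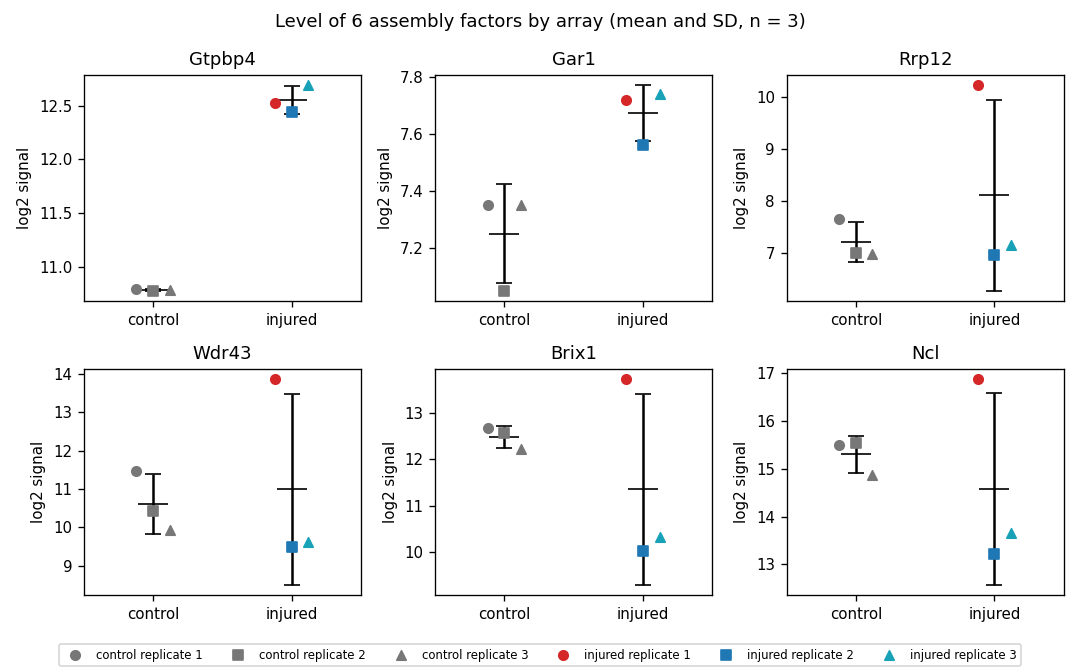
Log2 signal of 6 assembly factors on the 3 control and 3 injured arrays, with the mean and SD (n = 3) of each group beside the points. Gtpbp4 and Gar1 have injured points above all control points, and Rrp12, Wdr43, Brix1 and Ncl have injured replicate 1 far above the other 2 injured arrays. The vertical axes differ between genes and do not start at 0.

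The other factors of the 60S precursor did not share that pattern. Brix1, which takes part in early assembly of the 60S subunit, read 12.67, 12.58 and 12.22 in control tendon and 13.74, 10.02 and 10.31 in injured tendon, a difference of -1.13 (SE 1.02). Injured replicate 1 lay above the control range and the other 2 injured arrays lay at -2.47 and -2.18 from the control mean. Ddx21, an RNA helicase that couples RNA polymerase I transcription to processing, read 10.09, 10.09 and 9.61 in control and 12.54, 9.01 and 8.94 in injured tendon. It showed the same split with a larger excess on injured replicate 1, 2.61 over the control mean. Rrp1b, a partner of protein phosphatase 1 in the nucleolus, had the smallest difference of this role, -0.06 (SE 0.17), with 6.59, 6.53 and 6.52 in control and 6.75, 6.36 and 6.34 in injured tendon. Nop2 (an RNA methyltransferase), Rrs1, Mrto4 and Nop16 were 0.24 to 1.03 above the control mean on injured replicate 1 and between -0.08 and 0.17 on the other injured arrays. The median of the 8 members with this role was 1.01, -0.01 and -0.03 on injured replicates 1, 2 and 3.

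The PeBoW complex, needed for maturation of the 60S subunit RNAs, joins Pes1, Bop1 and Wdr12. Wdr12 read 8.34, 8.12 and 8.02 in control and 8.86, 8.56 and 8.63 in injured tendon, a difference of 0.52 (SE 0.17). All 3 injured arrays lay above the control range, and after centring the difference was -0.003. Bop1 read 6.08, 6.0 and 6.04 in control and 6.57, 6.02 and 6.16 in injured tendon, so that injured replicate 2 lay inside the control range. On injured replicates 2 and 3 Bop1 lay under the median unnamed probe set. Pes1 exceeded the control mean by 1.12 on injured replicate 1 and was at -0.23 and -0.10 on injured replicates 2 and 3.

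Box C/D particles guide methylation of ribosomal RNA. Fbl (fibrillarin, the methyltransferase) read 9.12, 9.25 and 9.01 in control and 9.77, 9.0 and 8.90 in injured tendon, a difference of 0.10 (SE 0.27). Its scaffold partners moved further apart between injured arrays. Nop58 read 9.82, 10 and 9.49 in control and 11.09, 8.83 and 8.85 in injured tendon. Nop56 read 9.56, 9.21 and 9.11 in control and 9.93, 8.20 and 8.31 in injured tendon, with a difference of -0.48 (SE 0.50). All 3 genes lay above the control range on injured replicate 1 and below it on both other injured arrays.

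Box H/ACA particles guide the conversion of uridine to pseudouridine. Gar1 was the member of this particle with injured arrays wholly above control, at 7.72, 7.56 and 7.74 against 7.35, 7.05 and 7.35, a difference of 0.42 (SE 0.16). After centring it was -0.10. Nhp2 read 7.97, 7.85 and 7.76 in control and 9.15, 7.42 and 7.58 in injured tendon, and its second probe set showed the same split, with 8.37 on injured replicate 1 and 6.36 and 6.67 on the others, against 6.83 to 6.88 in control. Dkc1 (dyskerin, the pseudouridine synthase) read 6.68, 6.36 and 6.34 in control and 6.91, 6.18 and 6.20 in injured tendon, where its values on replicates 2 and 3 lay under the median unnamed probe set.

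The abundant nucleolar proteins nucleolin and nucleophosmin bind ribosomal RNA and histones, and Nolc1 is a scaffold for small nucleolar particles. Ncl read 15.50, 15.54 and 14.86 in control and 16.87, 13.21 and 13.65 in injured tendon, a difference of -0.72 (SE 0.99). Npm1 read 15.82, 16.06 and 15.04 in control and 16.62, 15.19 and 14.65 in injured tendon, a difference of -0.15 (SE 0.57). Npm1 is on chromosome 10 in RefSeq's table of GRCr8, and the probe set used (TC0X00002316.rn.1) carries another prefix. Whether it reads a near-identical copy was not tested. The other probe set (TC1000002512.rn.1) read 15.00, 15.15 and 14.44 in control and 15.75, 14.19 and 13.86 in injured tendon, with injured replicate 1 again highest. Nolc1 read 7.92, 7.76 and 7.70 in control and 9.27, 7.20 and 7.35 in injured tendon. For all 3 genes the excess on injured replicate 1 was 0.98 to 1.57.

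The small subunit processome held the largest single-array excess. Wdr43, like Utp4, Utp15, Wdr75 and Heatr1 a member of the subcomplex that binds the start of the precursor RNA, read 11.48, 10.44 and 9.93 in control and 13.87, 9.49 and 9.63 in injured tendon. Its control arrays spread by 0.79 (SD), and injured replicate 1 was 3.25 above their mean. Utp4 read 10.81, 10.53 and 10.53 in control and 12.28, 8.72 and 8.71 in injured tendon, a difference of -0.72 (SE 1.01). Both genes were above control on 1 injured array and below it on 2. Heatr1 read 7.22, 7.24 and 7.28 in control and 8.50, 7.32 and 7.45 in injured tendon, and its second probe set had the same order, with 7.18, 7.21 and 7.27 against 8.44, 7.34 and 7.47. Utp15 read 7.75, 8.0 and 8.02 in control and 8.36, 8.22 and 8.12 in injured tendon, so both had injured arrays wholly above control. After centring, Heatr1 was at -0.02 and Utp15 at -0.22. Utp20, a large scaffold protein, had the smallest difference of all members, -0.02 (SE 0.37), with 7.78, 7.81 and 7.75 in control and 8.59, 7.27 and 7.43 in injured tendon, so that injured replicate 1 stood high and the others low. Wdr75 and Rrp9, which binds the U3 small nucleolar RNA, exceeded the control mean by 0.28 and 0.27 on that array. On injured replicates 2 and 3 Wdr75 was at -1.06 and -0.93 from it, and Rrp9 at 0.02 and 0.14.

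Factors of later 40S steps were above control chiefly on injured replicate 1. Rrp12, an export factor in yeast, read 7.65, 7.0 and 6.99 in control and 10.22, 6.96 and 7.15 in injured tendon, a difference of 0.90 (SE 0.91). Injured replicate 1 was 3.01 above the control mean, while injured replicates 2 and 3 were at -0.25 and -0.06 from it. Ltv1 read 7.84, 7.71 and 7.70 in control and 8.37, 7.71 and 7.67 in injured tendon. Bysl (bystin) and Nob1, the nuclease that makes the final cut of 18S RNA, exceeded the control mean by 1.58 and 1.43 on injured replicate 1 and lay at -0.18 to -0.44 on the others. The Noc proteins act in pairs on both subunits, and Nop14 is a partner of theirs. Nop14 read 7.98, 7.83 and 7.57 in control and 9.24, 7.75 and 7.44 in injured tendon, and Noc3l read 9.10, 9.04 and 8.54 in control and 9.83, 8.0 and 7.96 in injured tendon. Noc2l read 7.20, 7.07 and 7.12 against 7.95, 6.86 and 6.95, so these 3 genes were above the control range on injured replicate 1 alone. Noc4l differed from the control mean by 0.29, 0.21 and 0.08 on injured replicates 1, 2 and 3. It lay above the control range on the first 2 of these. On replicates 2 and 3 it lay under the median unnamed probe set, so these values are close to background. Polr1b, the second largest subunit of RNA polymerase I, read 6.93, 6.66 and 6.78 in control and 7.76, 6.55 and 6.68 in injured tendon.

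The rest of the pathway was read from fixed lists. Of 86 other assembly factors measured, 81 lay above every control array on injured replicate 1, against 21.0% of all genes. Their median excess was 0.52. On injured replicates 2 and 3 their medians were -0.36 and -0.32. There 61 and 60 lay below every control array, against 32.6% and 33.3% of all genes. Among all genes with a control mean of 7 to 9, 68.8% and 69.8% did. In limma 0 of the 86 passed. At an unadjusted p under 0.05, 3 were higher and 0 lower, against 4.39% and 7.25% of all genes. Injured arrays were wholly above control for 8, against 7.09% of all genes. Esf1, which acts in 40S assembly in yeast, had the largest difference, -1.31 (SE 1.14), with 11.35, 10.74 and 10.07 in control and 11.99, 7.91 and 8.34 in injured tendon. Nol7 followed at -1.22 (SE 0.67). Of 15 further genes of the RNA polymerase I machinery, 11 lay above every control array on injured replicate 1, against 21.0% of all genes. Their median excess was 0.34. Rrn3, the initiation factor of that polymerase, read 11.31, 10.65 and 10.11 in control and 11.97, 7.69 and 7.90 in injured tendon, and Ubtf, its upstream binding factor, differed by -0.66 (SE 0.36). In limma 0 of the 15 genes passed, and 0 did so at an unadjusted p under 0.05.

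Ribosomal proteins and common reference genes differed from the assembly factors on injured replicate 1. Of 70 cytosolic ribosomal protein genes 26 lay above every control array there, with a median excess of 0.15. Of all genes 21.0% did, and of those with a control mean of 9 or more 26.5%. On injured replicates 2 and 3 the medians of the ribosomal protein genes were -1.43 and -1.14. All genes with a control mean of 9 or more had medians of -2.06 and -1.82 there. In limma 0 of the 70 passed, and at an unadjusted p under 0.05, 1 was higher and 2 lower, against 4.39% and 7.25% of all genes. Many ribosomal protein genes have near-identical processed copies, so single values are uncertain, among them the largest differences, -4.55 (SE 1.86) for Rpl37a and -3.22 (SE 1.22) for Rps4x. Of 12 reference genes 3 lay above and 4 below the control range on injured replicate 1, with a median of -0.30. Of all genes, 21.0% and 24.3% did. On each of the other 2 injured arrays 11 of 12 lay below it, against 32.6% and 33.3% of all genes. Of all genes with a control mean of 9 or more, 90.7% and 90.1% did. The largest differences were -2.55 (SE 0.79) for Pgk1 and -2.24 (SE 0.92) for Sdha. In limma 0 of 12 passed, and 4 were lower at an unadjusted p under 0.05, against 7.25% of all genes. The difference between these lists and the members was not tested.

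**Figure D4:**
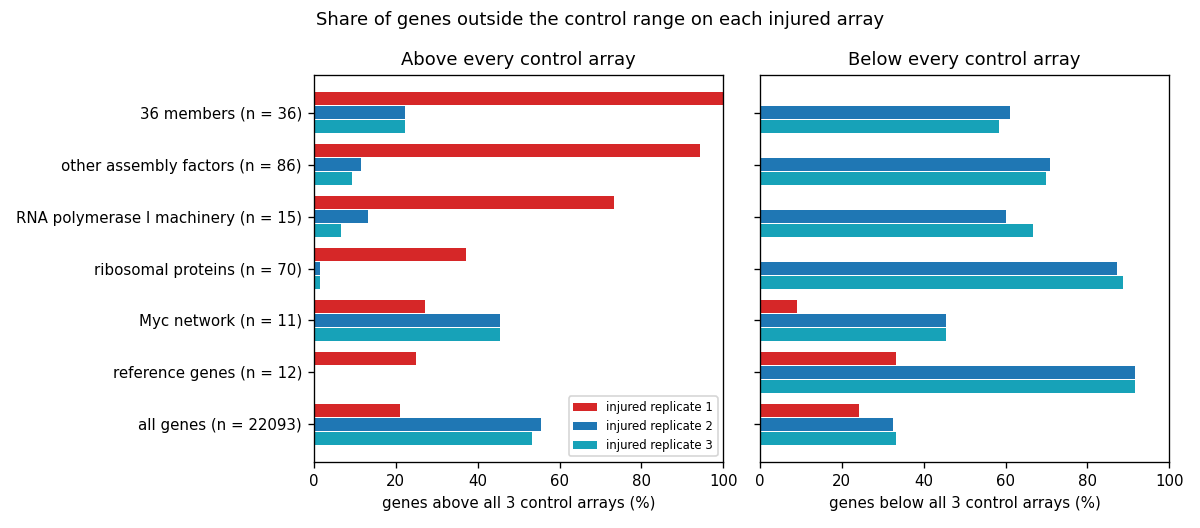
Percent of genes in each list that read above (left) or below (right) all 3 control arrays, for each injured array. The assembly factors reach 100% and 94.2% above control on injured replicate 1, RNA polymerase I genes 73.3%, ribosomal proteins 37.1% and all genes 21.0%.

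Myc and its partners were looked at because many assembly factor genes are its targets. Myc itself, chosen after its values were seen, read 6.72, 6.57 and 6.72 in control and 7.36, 6.59 and 6.72 in injured tendon. It too was above the control range on injured replicate 1 and inside it on the others. Its signals on replicates 2 and 3 were close to the median unnamed probe set, at 6.61 and 6.50, and so to background. Its obligate partner Max, also chosen after its values were seen, read 9.80, 9.63 and 9.76 in control and 10.17, 8.91 and 8.92 in injured tendon. Mycn, a relative of Myc likewise chosen after its values were seen, read 5.59, 5.48 and 5.85 in control and 5.51, 6.24 and 6.03 in injured tendon. It was above the control range on injured replicates 2 and 3 and inside it on replicate 1. On replicates 2 and 3 it lay under the median unnamed probe set, at 6.61 and 6.50, so these values are close to background. Of all genes with a control mean under 7, 81.1% and 78.2% lay above the control range on those arrays. Of 11 genes of this network 3 (27.3%) lay above every control array on injured replicate 1, against 21.0% of all genes, and 0 passed in limma or reached an unadjusted p under 0.05. The largest differences were 1.36 (SE 0.67) for Mxd1, a competitor of Myc for Max, and -1.16 (SE 0.59) for Mga.

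Because the members all read high on injured replicate 1, their promoters were searched for the E-box CACGTG, the letters that Myc and Max are known to prefer. RefSeq's table on build GRCr8 held 33 of the 36 members, with 250 bases before and 50 after each gene's start. The motif reads the same on both strands. It occurred in 11 of the 33 windows (33.3%), in 6.42% of all 33469 windows of the table and in 7.70% of the 17125 windows of genes tested. Members' windows held a median of 23 CG steps against 14 for the genes tested, and among the 5114 windows with at least 23 the motif occurred in 11.8%. It was present in 23 of 78 windows of other assembly factors (29.5%) and in 1 of 14 of the RNA polymerase I machinery. A match is a description of letters and not a binding site. The 11 members with the motif exceeded the control mean on injured replicate 1 by a median of 0.94, and the 22 without it by 0.98. The motif lay before the start in 6 members (Utp4, Wdr75, Pes1, Ltv1, Dkc1 and Utp20) and after it in 5 (Rrp12, Nop2, Bysl, Noc3l and Fbl). To show where it falls, a stretch of 120 bases from the 250 before the start is given, 5′ to 3′ on the gene's strand with the E-box in capitals, for the 4 members with the largest absolute differences among those 6.
Utp4, chr19:51702121-51702240, plus strand: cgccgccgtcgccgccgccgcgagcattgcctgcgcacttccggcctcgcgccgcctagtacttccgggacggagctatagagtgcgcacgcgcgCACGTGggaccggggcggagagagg
Wdr75, chr9:55395015-55395134, plus strand: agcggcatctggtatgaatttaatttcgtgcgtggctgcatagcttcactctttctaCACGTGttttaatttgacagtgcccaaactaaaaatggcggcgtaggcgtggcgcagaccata
Pes1, chr14:83074226-83074345, plus strand: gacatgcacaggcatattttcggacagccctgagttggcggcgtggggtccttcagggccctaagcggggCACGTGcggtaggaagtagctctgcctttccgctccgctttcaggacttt
Ltv1, chr1:9398558-9398677, minus strand: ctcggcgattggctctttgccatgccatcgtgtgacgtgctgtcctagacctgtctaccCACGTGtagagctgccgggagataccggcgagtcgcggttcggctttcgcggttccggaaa
In these windows the E-box begins 25 bases before the start of Utp4, 160 before that of Wdr75, 50 before that of Pes1 and 61 before that of Ltv1.

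Markers of other cells differed between the injured arrays too, and their part in the results above was not tested. On injured replicate 1, all 9 tenocyte genes lay below the control range, 0 of 7 skeletal muscle genes lay outside it, 2 of 5 endothelial genes lay above it (Pecam1 and Kdr), and 1 of 6 proliferation genes did (Pcna). Their mean levels there were 8.78, 17.27, 11.26 and 6.58, against control ranges of 11.27 to 13.68, 16.76 to 18.14, 9.73 to 11.14 and 6.39 to 6.55. Of all genes, 21.0% lay above and 24.3% below the control range on that array. Neutrophil genes averaged 5.67 on that array, inside the control range of 5.53 to 5.74, with 2 of 6 genes above every control array and 2 below. Of the macrophage, adipocyte and erythroid genes, 5 of 6, 3 of 4 and 2 of 3 lay below the control range on that array, and 4 of 6, 4 of 4 and 2 of 3 did so on injured replicates 2 and 3. The fourth adipocyte gene, Fabp4, lay above every control array on injured replicate 1, as did 2 of the 6 macrophage genes (Cd68 and Adgre1) on injured replicate 2 and Adgre1 on injured replicate 3. The mean level of endothelial genes, like that of the members, was higher on injured replicate 1 than on the other injured arrays. The same held for tenocyte, muscle, adipocyte, erythroid, ribosomal protein and reference genes. The other assembly factors, the RNA polymerase I machinery and the Myc network showed it as well. Neutrophil, macrophage and proliferation genes did not. A higher mean on injured replicate 1 was also found for all genes with a control mean of 9 or more, at 10.98, 8.87 and 9.12 on injured replicates 1, 2 and 3. The median difference of endothelial genes from the control mean was 0.60 on replicate 1, -3.44 on replicate 2 and -2.92 on replicate 3. On each of the latter 2 arrays, 4 of 5 endothelial genes lay below every control array, against 32.6% and 33.3% of all genes. Among all genes with a control mean of 9 or more the shares were 90.7% and 90.1%. Pecam1 was at 1.77, -4.26 and -4.45 from the control mean and Kdr at 1.85, -2.64 and -2.63. Vwf went otherwise, at -0.17, -0.30 and -0.36. Of the tenocyte genes 8 of 9 were below the control range on each of injured replicates 2 and 3, and Scx was slightly above it on the last, at 5.78 against at most 5.75. On injured replicates 2 and 3 all 6 neutrophil genes were above every control array, with means of 7.81 and 6.93. Of all genes, 55.4% and 53.2% were, and of those with a control mean under 7, 81.1% and 78.2% were. Mpo and Csf3r lay under the median unnamed probe set on both arrays. All 7 muscle genes were below the control range, with means of 11.20 and 11.39, against 32.6% and 33.3% of all genes. Among all genes with a control mean of 9 or more, 90.7% and 90.1% were below it. Acta1 read 19.86 on injured replicate 3, the highest value of that array. Acta1 and Myh4 read 19.93, the highest value, on the control arrays and on injured replicate 1. Proliferation genes averaged 6.93 and 7.32 on injured replicates 2 and 3, and 5 of 6 lay above the control range on each, with Pcna below it. Of these 5, Ccnb1, Cdk1 and Mcm2 lay under the median unnamed probe set on both arrays. Among all genes with a control mean under 7, 81.1% and 78.2% lay above the control range there. Receptor genes of smell and pheromone sensing, which tendon is not known to use, had a median difference from the control mean of 2.14 and 2.0 over 224 genes on injured replicates 2 and 3, and of -0.03 on injured replicate 1.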

How the data were processed

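Log2 signals of 68842 probe sets on 6 arrays were deposited by the authors. The submitters' processing notes name Affymetrix Expression Console, and its version, background correction and normalization are not stated there. That the scale is log2 was inferred from the range of values. Precision is limited by the number of arrays.

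The platform annotation named 1 gene for 23446 probe sets and several for 505, and left 44891 unnamed. Each gene took its probe set of highest mean. Entrez identifiers of 34 members matched RefSeq (GRCr8) under the same symbol, and the other 2, Npm1 and Gtpbp4, were matched by symbol. Values were used as deposited, with no filter. The fit was limma 3.58.1 (lmFit, eBayes, two-sided, Benjamini-Hochberg over 22093 genes, R 4.3.3). It was tried on simulated data in which both groups had the spread of the control arrays. The injured arrays spread more (median SD 0.45 over all genes, against 0.18), so that trial does not cover their spread. With 3 arrays a group, an exact permutation p cannot go below 0.1, so none is given. Replicates are called biological in the labels.

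The members and lists were chosen with earlier results of these data known. Members named with values on every array were, per role, those with the largest and smallest absolute difference and the highest mean, and all whose groups did not overlap. Ddx21 was added after its values were seen. From other lists the 2 largest differences are named. Alternatives were quantile normalization, centring, leaving out dim genes, the mean of probe sets, eBayes with trend and robust, array weights, the replicate block, each array left out, and injured replicates 2 and 3 left out.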

Additional observations from a re-analysis of the deposited data

How the results depend on the processing

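The count of members above every control array on injured replicate 1 was 36 under all 3 scalings, against 21.0%, 25.1% and 24.1% of all genes. Their median there was 0.98 as deposited, 0.93 after quantile normalization and 1.01 after centring. The median over all genes there was -0.02, 0.006 and 0.017, so these scalings could move that array little against control. The members' median difference was 0.18 as deposited, -0.18 after quantile normalization and -0.35 after centring, while the median of all genes was 0.15, -0.28 and -0.38, and 13 and 23 members turned sign. Members with injured arrays wholly above control numbered 5 as deposited, 2 after quantile normalization (Wdr12 and Gtpbp4) and 1 after centring (Gtpbp4). The other assembly factors had a median of 0.01 as deposited and -0.52 after centring. With injured replicates 2 and 3 left out, the members' median was 0.98, the other factors' was 0.52 and all 36 members were wholly above control, as were 21.0% of all genes. Leaving out each array gave 0 to 12 members past the threshold, 5 to 8 wholly above control, 0 to 18 wholly below, medians of -0.20 to 0.32 for the members and -0.36 to 0.15 for the other factors. The 12 calls and the 18 came without injured replicate 1, and 8 came without control replicate 3, injured replicate 2 or injured replicate 3. Of all genes, 30.4% were wholly below control and 51.2% wholly above without injured replicate 1, and 21.5%, 7.55% and 7.93% were wholly above in the latter 3 settings. Array weights called 23 members, 5 higher and 18 lower, and 18098 of 22093 genes. Their estimation did not converge and gave injured replicate 3 a weight of 29 and injured replicate 1 a weight of 0.053, so these calls were not used. Same-numbered arrays deviated from their group means with correlations of 0.48, -0.04 and 0.59. These values do not settle whether the numbers mark pairs, and the main fit did not treat them as pairs. With the replicate block the members' median was 0.18, 0 passed and 5 were wholly above control. In limma 4565 genes reached an unadjusted p under 0.05 with the block and 2572 without it. Among the members, 2 and 3 did. Dim genes left out, the mean of probe sets, and eBayes with trend and robust gave 0 calls, 5 members wholly above control and medians of 0.16 to 0.18. Values near the unnamed probe sets on injured replicates 2 and 3 limit how far a low member could fall there.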
